A study of Mus musculus with 7 samples.

Results

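The genes described here are 10 genes by which macrophages take in, carry, store and build lipid: Cd36, Msr1, Lpl, Aqp9, Fabp4, Fabp5, Plin2, Lpin1, Dgat1 and Dgat2. They were taken by symbol from the 55417 rows of a table of read counts. All 10 had a row, and all 10 were among the 13329 genes that passed the filter on low counts. They were chosen by name with measured values of these libraries known, among them the fold changes of Plin2, Cd36, Lpin1 and Aqp9 against the control hairpin. Therefore all differences of the 10 genes from the control hairpin are given as a description, with sizes and 95% intervals and no p-value. Where the number of them past a threshold against the control hairpin is counted, the count is part of that description and supports nothing.

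RNA was sequenced from RAW264.7, a line of mouse macrophage-like cells, in 3 groups. The group shDpep2.968 (n = 2) and the group shDpep2.759 (n = 2) each carried a short hairpin RNA against Dpep2, which encodes a membrane-bound dipeptidase, and the group shNT (n = 3) carried the control hairpin. The labels give the same line for every sample and no further agent. Whether a group was a single clone, how hairpins were delivered and whether replicates were separate cultures is not stated in the labels, so each p-value measures the spread between the libraries at hand, which may be technical.

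Libraries held 16548648 to 18401060 counts in total. The replicates of shDpep2.759 differed from each other more than those of the other groups, and Fabp4 and Fabp5 are given below with and without each of them. Levels are given as CPM, the count divided by the TMM-scaled library size. The targeted gene, Dpep2, measured 22.3 and 17.9 CPM in the shDpep2.968 libraries, 24.8 and 19.5 CPM in the shDpep2.759 libraries and 55.5, 60.2 and 52.1 CPM in the shNT libraries. Dpep2 overlaps the protein-coding gene Dus2 and a lincRNA on the opposite strand, and a snoRNA on its own strand. Whether reads were counted by strand is not stated in the labels. Of 12 macrophage markers 11 were tested. Averaged over both hairpins, 2 were past the threshold (edgeR adjusted p under 0.05) and higher, Adgre1 and Fcgr1; with shDpep2.759 alone these 2 were, and with shDpep2.968 alone no macrophage marker was. None was at 0 throughout, and their summed level was 16216 and 16526 CPM in the shDpep2.968 libraries, 22083 and 18436 CPM in the shDpep2.759 libraries and 15661 to 17345 CPM in the shNT libraries. Most of that sum was Lyz2, at 9320 and 9636 CPM, 14037 and 10840 CPM and 8808 to 9785 CPM in the same order. Itgam was lower with shDpep2.968, at 895 and 845 CPM against 1096 to 1339 CPM with shNT, and not past the threshold. Adipocytes also use several of the 10 genes. Of 10 adipocyte markers 1 was tested, Lipe, and it was not past the threshold. The summed level was 22.3 to 24.7 CPM with the hairpins and 20.5 to 25.8 CPM with shNT, nearly all of it Lipe. The defining markers Adipoq, Lep and Cfd were at 0 counts in all 7 libraries. Markers of other cell types also differed, counted here averaged over both hairpins. The markers were chosen with earlier results known, so their counts are a description. Of all tested genes 3.44% were past the threshold and higher averaged, 2.29% with shDpep2.968 alone and 2.72% with shDpep2.759 alone. Between the hairpins 0.840% were past it in either direction. Of 8 osteoclast markers 6 were tested and 4 were higher with the hairpins (192 to 234 CPM summed, against 90.5 to 108 CPM with shNT), with Calcr at 0 throughout. Of 8 dendritic cell markers 5 were tested and 2 were higher (40.5 to 73.1 CPM summed with the hairpins, against 18.0 to 21.1 CPM with shNT), and none of the 8 was at 0 throughout. Of 8 fibroblast markers 2 were tested and 1 was higher (2.19 to 3.57 CPM summed, against 0.724 to 1.64 CPM with shNT), with Col1a2, Fbln1 and Postn at 0. The fibroblast marker was past the threshold with shDpep2.759 alone and not with shDpep2.968 alone. The osteoclast markers past it were 4 with shDpep2.968 alone and 3 with shDpep2.759 alone. The dendritic cell markers past it were 2 with either hairpin. Cd83, which made up most of their summed level, was higher in every hairpin library than in any shNT library. It measured 31.0 and 38.0 CPM with shDpep2.968, 66.5 and 62.4 CPM with shDpep2.759 and 14.4 to 16.2 CPM with shNT. In Itgax and Ccr7 the hairpins differed. Itgax measured 8.26 and 7.65 CPM with shDpep2.968, 2.30 and 4.56 CPM with shDpep2.759 and 1.79 to 2.60 CPM with shNT. Ccr7 measured 0.635 and 0.345 CPM with shDpep2.968, 3.14 and 3.22 CPM with shDpep2.759 and 0.383 to 0.724 CPM with shNT. Between the hairpins, 1 macrophage and 2 dendritic cell markers were past the threshold and lower with shDpep2.968, and 1 osteoclast marker was higher. The part of these shifts in the values below was not tested, and in bulk RNA fewer cells of a type and less RNA per cell cannot be told apart.

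Macrophages take up modified lipoproteins through scavenger receptors and free fatty acids through transporters, and lipoprotein lipase releases fatty acids from circulating triglyceride at the cell surface. Fatty acid binding proteins carry the acids through the cytosol. Acids that are not burned are joined to glycerol phosphate, made into diacylglycerol and triglyceride, and stored in droplets coated by perilipins, the hallmark of foam cells. Nuclear receptors of the PPAR and LXR families are known to control many of these genes.

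Promoter sequence is shown for the 4 of the 10 genes that had an entry. They are also the 4 with the largest averaged log2 fold changes in size. RefSeq (GRCm38.p6) windows were matched by symbol for Plin2, Cd36, Lpin1 and Aqp9, the last with a pair of alternative starts; Msr1, Lpl, Fabp4, Fabp5, Dgat1 and Dgat2 had no matched window. The 250 bases before each start are printed 5′ to 3′ on the gene's strand, with every match to a searched motif in capitals.
Plin2, chr4:86670060-86670309, minus strand: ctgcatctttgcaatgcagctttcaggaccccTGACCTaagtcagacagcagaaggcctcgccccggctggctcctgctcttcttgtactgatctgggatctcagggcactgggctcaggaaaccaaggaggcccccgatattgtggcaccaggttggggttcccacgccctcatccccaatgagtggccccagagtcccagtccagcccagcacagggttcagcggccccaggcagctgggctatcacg
Cd36, chr5:17835897-17836146, minus strand: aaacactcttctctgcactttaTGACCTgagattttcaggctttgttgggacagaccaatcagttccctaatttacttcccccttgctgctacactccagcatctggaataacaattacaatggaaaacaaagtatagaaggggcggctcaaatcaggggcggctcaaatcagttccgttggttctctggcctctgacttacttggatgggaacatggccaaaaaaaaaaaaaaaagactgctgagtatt
Lpin1, chr12:16610967-16611216, minus strand: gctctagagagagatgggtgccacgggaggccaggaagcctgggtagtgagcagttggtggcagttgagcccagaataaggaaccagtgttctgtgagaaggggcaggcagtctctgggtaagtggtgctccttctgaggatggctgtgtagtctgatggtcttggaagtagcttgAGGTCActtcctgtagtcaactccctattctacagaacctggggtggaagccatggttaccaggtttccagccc
Aqp9, downstream start, chr9:71162634-71162883, minus strand: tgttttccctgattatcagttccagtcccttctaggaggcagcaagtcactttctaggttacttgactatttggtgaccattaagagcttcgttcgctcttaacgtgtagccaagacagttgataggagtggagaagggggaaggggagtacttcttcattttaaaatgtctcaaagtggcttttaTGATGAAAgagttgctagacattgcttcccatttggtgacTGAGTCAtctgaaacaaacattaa
Aqp9, upstream start, chr9:71163290-71163539, minus strand: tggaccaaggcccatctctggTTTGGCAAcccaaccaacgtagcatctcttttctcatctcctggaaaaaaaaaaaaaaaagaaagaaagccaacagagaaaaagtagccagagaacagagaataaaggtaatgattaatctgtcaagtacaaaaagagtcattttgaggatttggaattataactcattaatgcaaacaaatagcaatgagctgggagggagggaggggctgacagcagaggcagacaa
The motifs were searched on both strands, with N standing for any base. AGGTCA, the hexamer read by nuclear receptors, was found in the windows of Plin2 (from position -218, minus strand), Cd36 (from -228, minus strand) and Lpin1 (from -74, plus strand), and it is present in 14.0% of all 32851 windows of the same length. Direct repeats of the hexamer with a spacer of 1 base (0.033% of windows) or 4 bases (0.015%) contain it, and neither was found in the printed windows. TTGCNNAA, a C/EBP motif, was found in the upstream Aqp9 window (from -229, minus strand; 9.56% of all windows). TGATGNAA, a C/EBP-ATF motif, and TGANTCA, the AP-1 motif, were found in the downstream Aqp9 window (from -64 and -24; 3.45% and 6.75%). The sterol element TCACNCCAC (1.05%), the E-box CACGTG (6.02%) and the NF-kB motif, GGG and TTTCC around 2 free bases (1.41%), were not found. The matches are a description of letters, and no binding was measured.

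The 10 genes spanned a wide range of levels. Scaled by the length of the longest transcript, the control cells ranked Fabp5 first at 289 CPM per kb, then Plin2 at 214, Msr1 at 141, Cd36 at 131, Lpl at 107 and Fabp4 at 67.3 CPM per kb. The remaining 4 were far lower, with Dgat1 at 7.27, Aqp9 at 5.22, Lpin1 at 4.28 and Dgat2 at 1.54 CPM per kb. The shNT libraries of Msr1 and Cd36 overlapped on this scale, as did those of Cd36 and Lpl and those of Aqp9 and Lpin1. Such overlap takes no account of both genes being read in the same library. Within the shNT libraries the ratio of Cd36 to Msr1 was 0.986, 0.852 and 0.941, so Msr1 was the higher of that pair in each. Plin2 headed this order with either Dpep2 hairpin, at 608 CPM per kb with shDpep2.968 and 406 CPM per kb with shDpep2.759. Scaled by the merged exon length instead, Cd36 ranked first in shDpep2.759 and shNT, and Fabp5 ranked 4th in every group. In shNT Cd36 was then at 124, Plin2 at 115 and Fabp5 at 80.0 CPM per kb. The order at the top thus depends on the length used.

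**Figure D1:**
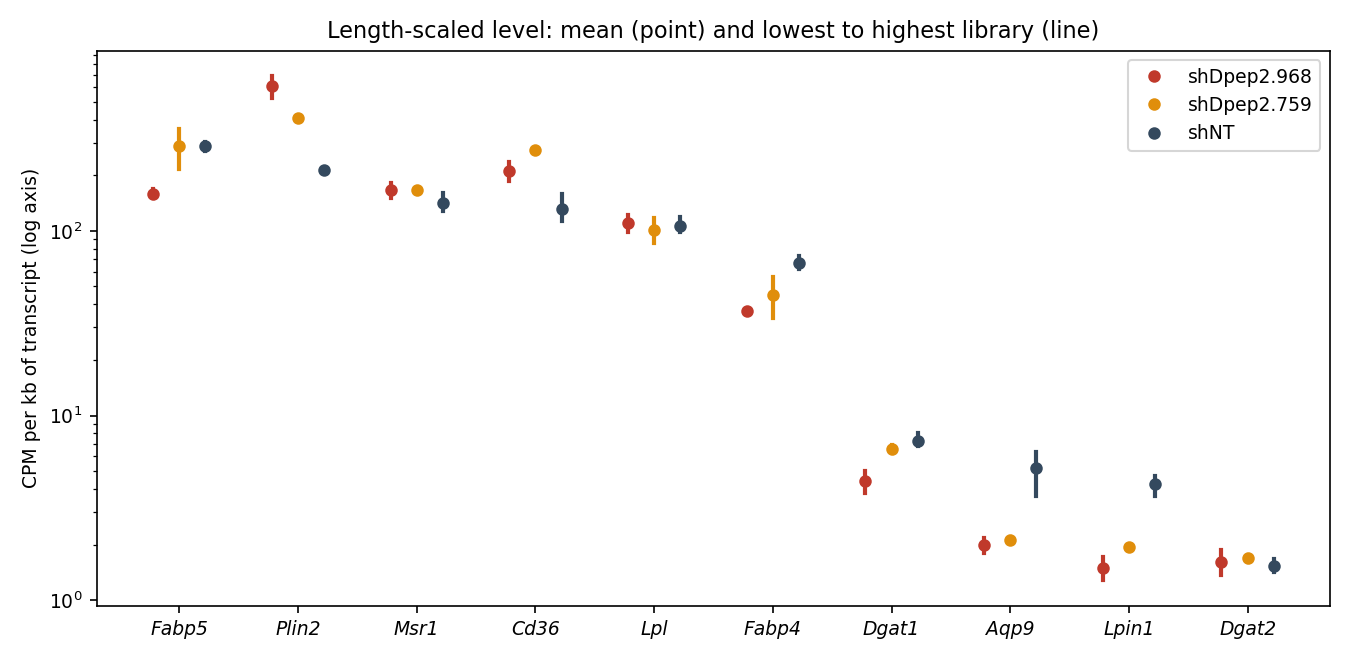
Mean level of each gene in CPM per kb of longest transcript (log axis) by group, with lines from the lowest to the highest library (n = 2, 2 and 3). Plin2 with shDpep2.968 is the highest point at 608 CPM per kb, and Lpin1 and Aqp9 lie below their shNT points with either hairpin.

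At the cell surface, the scavenger receptors differed from each other. Cd36, which takes up oxidised lipoprotein and long-chain fatty acids, measured 635 and 802 CPM in the shDpep2.968 libraries, 917 and 935 CPM in the shDpep2.759 libraries and 539, 385 and 412 CPM in the shNT libraries. Every Dpep2 hairpin library lay above every control library. The log2 fold change was 0.69 with shDpep2.968 (SE 0.16, 95% interval 0.34 to 1.04) and 1.06 with shDpep2.759 (SE 0.16, 95% interval 0.71 to 1.40). With a correction for GC content and length, added after seeing the data, the shDpep2.968 value was 0.40. Msr1, the class A scavenger receptor for acetylated and oxidised lipoprotein, measured 547 and 660 CPM in the shDpep2.968 libraries, 599 and 610 CPM in the shDpep2.759 libraries and 585, 483 and 468 CPM in the shNT libraries. The shDpep2.968 libraries overlapped the shNT libraries, while both shDpep2.759 libraries lay just above the highest shNT library. The log2 fold change of Msr1 averaged over both hairpins was 0.24 (95% interval -0.019 to 0.50). In the same libraries the ratio of Cd36 to Msr1 per kb averaged 1.27 ± 0.042 with shDpep2.968 (SD, n = 2) and 1.64 ± 0.0016 with shDpep2.759 (SD, n = 2), against 0.926 ± 0.068 with shNT (SD, n = 3). All 4 hairpin libraries had a higher ratio than all 3 control libraries.

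Lpl, the lipoprotein lipase, showed no separation. It measured 403 and 500 CPM in the shDpep2.968 libraries, 353 and 484 CPM in the shDpep2.759 libraries and 491, 419 and 407 CPM in the shNT libraries. Its averaged log2 fold change was -0.014 (95% interval -0.31 to 0.28), an interval that leaves room for changes of that size in either direction. Aqp9, a channel for glycerol and other small solutes, measured 4.74 and 5.75 CPM in the shDpep2.968 libraries, 5.38 and 5.79 CPM in the shDpep2.759 libraries and 9.72, 16.7 and 14.96 CPM in the shNT libraries. The lowest control library lay above every hairpin library, and the control libraries themselves were spread. Its log2 fold change was -1.40 with shDpep2.968 (95% interval -1.91 to -0.89) and -1.31 with shDpep2.759 (95% interval -1.81 to -0.80). Aqp9 overlaps an antisense gene and a pseudogene on the opposite strand, and the labels do not say whether reads were counted by strand.

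**Figure D2:**
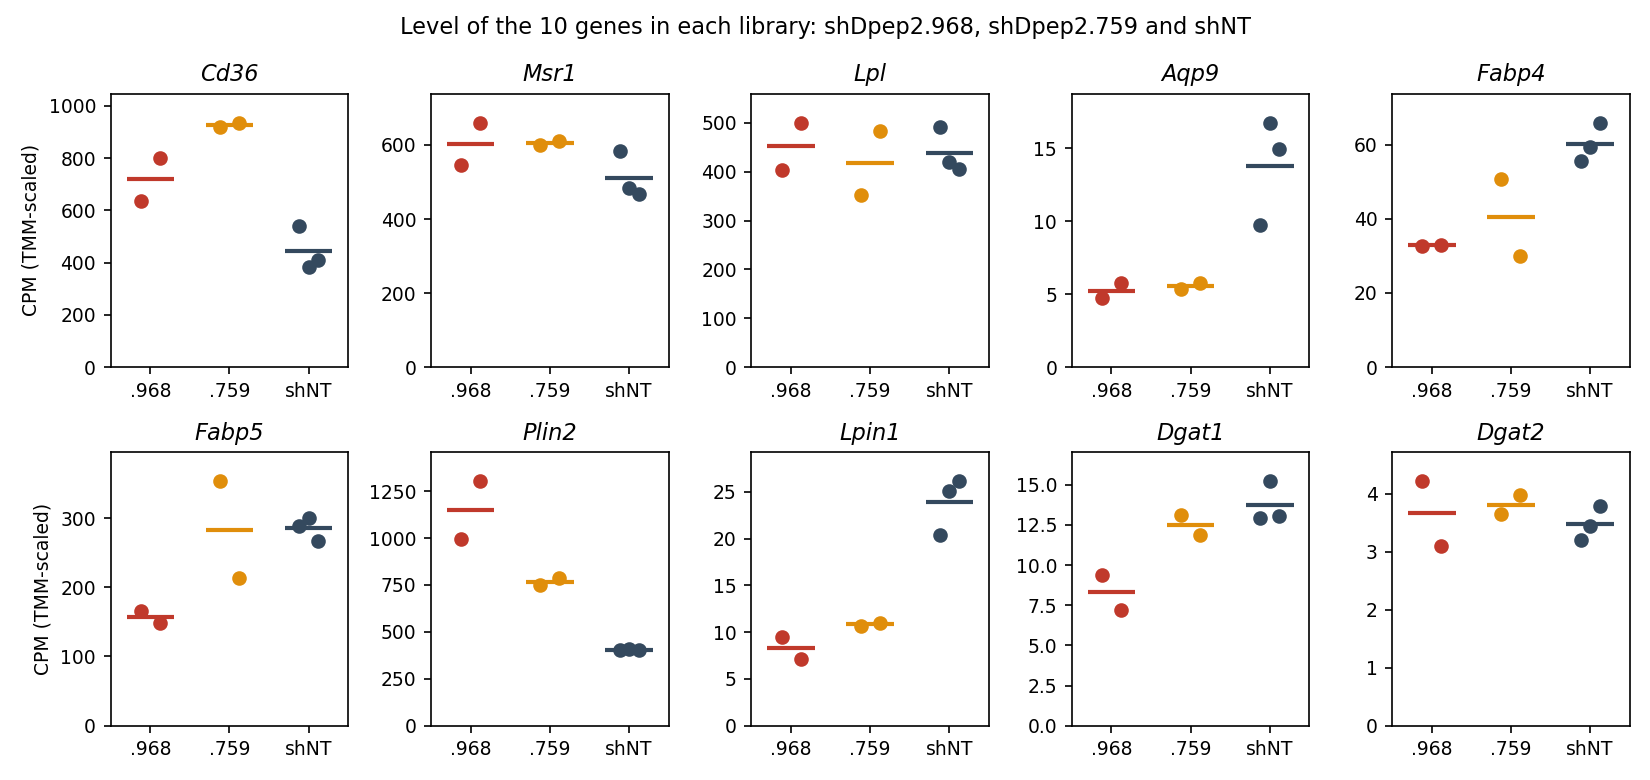
CPM of each gene in each library (points) with group means (bars), for shDpep2.968, shDpep2.759 and shNT from left to right on linear axes from 0. All hairpin points of Cd36 and Plin2 lie above, and all those of Aqp9, Fabp4 and Lpin1 below, the shNT points.

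Of the fatty acid binding proteins, Fabp4 was lower in all 4 Dpep2 hairpin libraries and Fabp5 in both shDpep2.968 libraries and 1 shDpep2.759 library. Fabp4, the form shared by adipocytes and macrophages, measured 32.7 and 32.9 CPM in the shDpep2.968 libraries, 50.6 and 30.1 CPM in the shDpep2.759 libraries and 55.5, 59.4 and 65.9 CPM in the shNT libraries. All hairpin libraries lay below the control libraries, shDpep2.759 replicate 1 only just. Against shNT the log2 fold change was -0.88 with shDpep2.968 (95% interval -1.28 to -0.47) and -0.58 with shDpep2.759 (95% interval -0.98 to -0.18). Fabp5, the epidermal form that macrophages also make, measured 166 and 148 CPM in the shDpep2.968 libraries, 353 and 213 CPM in the shDpep2.759 libraries and 288, 301 and 267 CPM in the shNT libraries. The shDpep2.968 libraries were lower than all others, and the shDpep2.759 libraries lay on either side of the control libraries. The log2 fold change of Fabp5 was -0.86 with shDpep2.968 (95% interval -1.26 to -0.47) and -0.011 with shDpep2.759 (95% interval -0.40 to 0.37). Both proteins' transcripts were higher in shDpep2.759 replicate 1 than in replicate 2. Without replicate 1 the shDpep2.759 log2 fold change was -1.004 for Fabp4 and -0.42 for Fabp5, and without replicate 2 it was -0.26 for Fabp4 and 0.30 for Fabp5. The ratio of Fabp5 to Fabp4 per kb was nonetheless close in that pair, at 6.33 and 6.44, while it was 4.59 and 4.08 with shDpep2.968 and 4.71, 4.60 and 3.68 with shNT.

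Plin2, the perilipin that coats droplets in most cells other than fat cells, lay higher in every Dpep2 hairpin library than in any control library. It measured 993 and 1303 CPM in the shDpep2.968 libraries, 750 and 785 CPM in the shDpep2.759 libraries and 402, 408 and 403 CPM in the shNT libraries. The 3 control libraries were nearly level, and the groups formed 3 separate bands. On the log2 scale its fold change was 1.51 with shDpep2.968 (SE 0.14, 95% interval 1.21 to 1.80) and 0.93 with shDpep2.759 (SE 0.14, 95% interval 0.63 to 1.22). Plin3, the other perilipin with clear counts, is a droplet coat protein that also cycles through the cytosol. The ratio of Plin2 to Plin3 per kb was 43.1 and 63.1 with shDpep2.968 and 25.8 and 32.6 with shDpep2.759, against 15.7, 12.4 and 14.6 with shNT. Plin2 made up 96.3% to 98.4% of the length-scaled counts of the 5 perilipins in the hairpin libraries and 92.6% to 94.0% in the control libraries.

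The glycerolipid synthesis enzymes among the 10, Lpin1, Dgat1 and Dgat2, were at low levels and differed among themselves. Lpin1, a phosphatidate phosphatase that makes diacylglycerol and also acts in the nucleus as a transcriptional coregulator, measured 9.53 and 7.14 CPM in the shDpep2.968 libraries, 10.7 and 10.9 CPM in the shDpep2.759 libraries and 20.3, 25.1 and 26.1 CPM in the shNT libraries. The highest hairpin library was well below the lowest control library. The fitted log2 fold change was -1.52 with shDpep2.968 (SE 0.18, 95% interval -1.90 to -1.13) and -1.14 with shDpep2.759 (SE 0.17, 95% interval -1.52 to -0.77). Lpin2, the related phosphatase, was higher than Lpin1 in every library. The ratio of Lpin1 to Lpin2 per kb averaged 0.182 ± 0.052 with shDpep2.968 (SD, n = 2) and 0.264 ± 0.017 with shDpep2.759 (SD, n = 2), against 0.595 ± 0.088 with shNT (SD, n = 3). Lpin1 made up 11.3% to 19.3% of the length-scaled counts of the 3 lipins in the hairpin libraries and 29.5% to 35.9% in the control libraries.

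Dgat1 and Dgat2 encode unrelated enzymes that add the last fatty acid to triglyceride. Dgat1 measured 9.41 and 7.19 CPM in the shDpep2.968 libraries, 13.1 and 11.9 CPM in the shDpep2.759 libraries and 12.9, 15.2 and 13.1 CPM in the shNT libraries. The shDpep2.968 libraries were lower than all others, whereas shDpep2.759 overlapped shNT. The log2 fold change of Dgat1 was -0.73 with shDpep2.968 (95% interval -1.10 to -0.35) and -0.14 with shDpep2.759 (95% interval -0.50 to 0.23). Dgat2, with 53 to 73 counts per library, measured 4.22 and 3.11 CPM in the shDpep2.968 libraries, 3.64 and 3.98 CPM in the shDpep2.759 libraries and 3.20, 3.45 and 3.80 CPM in the shNT libraries. The groups overlapped, and the averaged log2 fold change of Dgat2 was 0.10 (95% interval -0.33 to 0.53). The ratio of Dgat1 to Dgat2 per kb averaged 2.72 ± 0.069 with shDpep2.968 (SD, n = 2) and 3.94 ± 0.52 with shDpep2.759 (SD, n = 2), against 4.75 ± 0.59 with shNT (SD, n = 3), with the shDpep2.759 and shNT libraries overlapping.

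**Figure D3:**
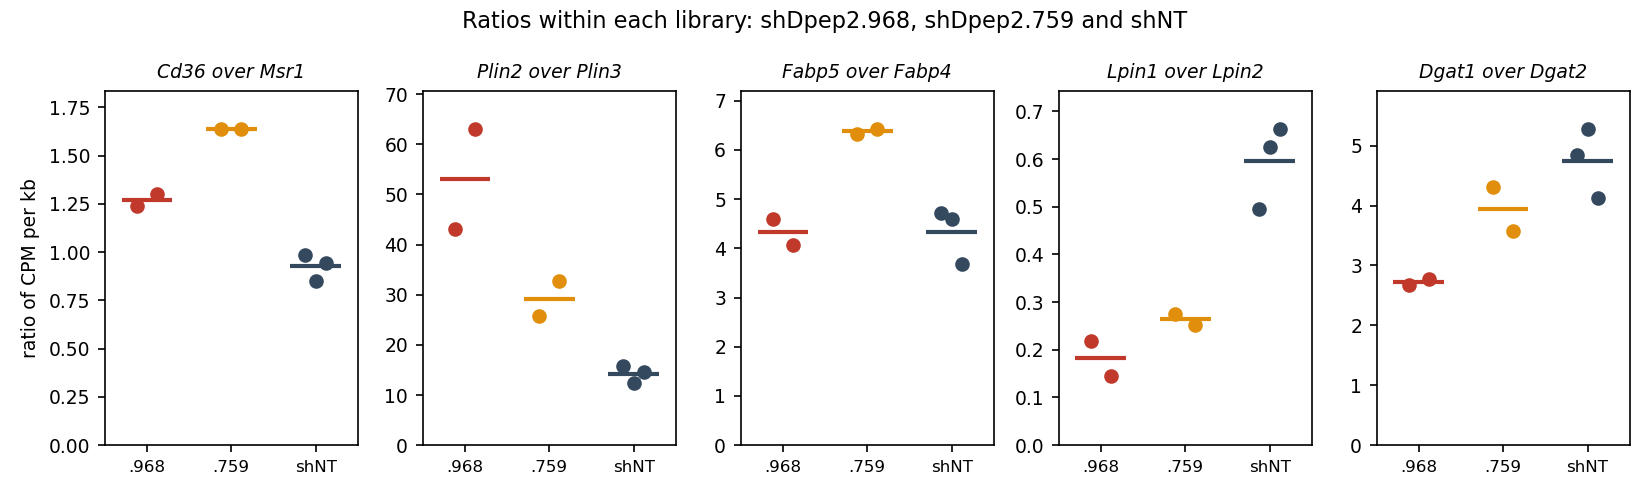
Ratios of CPM per kb between paired genes in each library (points) with group means (bars), for shDpep2.968, shDpep2.759 and shNT from left to right. The Cd36 to Msr1 and Plin2 to Plin3 ratios are higher, and the Lpin1 to Lpin2 ratio lower, in all 4 hairpin libraries than in the 3 shNT libraries.

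Averaged over both hairpins, 2 of the 10 genes were past the edgeR threshold (adjusted p under 0.05 over all tested genes) and higher, Cd36 and Plin2, and 3 were lower, Fabp4, Lpin1 and Aqp9. Of all tested genes 7.59% were past it, 3.44% higher and 4.15% lower. The hairpin and control libraries of the same 5 genes did not overlap, as for 18.5% of all tested genes. With shDpep2.968 alone 7 of 10 were past the threshold (Cd36 and Plin2 higher; Fabp4, Fabp5, Lpin1, Aqp9 and Dgat1 lower), beside 5.25% of all genes (2.29% higher, 2.96% lower). With shDpep2.759 alone 4 of 10 were past it (Cd36 and Plin2 higher; Lpin1 and Aqp9 lower), beside 4.73% of all genes (2.72% higher, 2.00% lower). The median log2 fold change of the 10 genes was -0.22 averaged, -0.34 for shDpep2.968 and -0.040 for shDpep2.759, beside 0.0025, -0.0041 and 0.0033 for all tested genes in the same order. The 10 genes were chosen with these contrasts in view, so nothing is read from these shares, and the single-hairpin comparisons share the shNT libraries. The averaged call of Fabp4 was lost without shDpep2.968 replicate 2 or shNT replicate 3, and Fabp5 passed without shDpep2.759 replicate 1. With shDpep2.968, the number past the threshold was 4 without its replicate 1, 2 without its replicate 2, and 3 when either shNT replicate 2 or shNT replicate 3 was left out.

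The hairpins were then set against each other, a contrast that the choice of genes did not name. None of the 10 genes was past the edgeR threshold, beside 0.840% of all tested genes, while 3 of 10 had an unadjusted p under 0.05, beside 15.0% of all genes. DESeq2 called 2 of the 10 and limma-voom 0. Fabp5 averaged 157 ± 12.5 CPM with shDpep2.968 and 283 ± 98.9 CPM with shDpep2.759 (SD, n = 2 each). Its log2 difference was -0.85 (95% interval -1.28 to -0.43, edgeR adjusted p = 0.0701), with both shDpep2.968 libraries lower. Plin2 averaged 1148 ± 219 CPM with shDpep2.968 and 767 ± 24.2 CPM with shDpep2.759 (SD, n = 2 each). Its log2 difference was 0.58 (95% interval 0.25 to 0.91, edgeR adjusted p = 0.0983), with both shDpep2.968 libraries higher. Dgat1 averaged 8.30 ± 1.57 CPM with shDpep2.968 and 12.5 ± 0.88 CPM with shDpep2.759 (SD, n = 2 each). Its log2 difference was -0.59 (95% interval -0.998 to -0.18, edgeR adjusted p = 0.176). For Cd36 the difference was -0.37 (95% interval -0.75 to 0.017, edgeR adjusted p = 0.351) and for Lpin1 -0.38 (95% interval -0.80 to 0.042, edgeR adjusted p = 0.383). For Msr1, Lpl, Fabp4, Aqp9 and Dgat2 the intervals also included 0. Without shDpep2.759 replicate 2, 3 of the 10 genes (Plin2, Fabp4 and Fabp5) were past the threshold, and with the GC and length correction 3 were (Cd36, Plin2 and Fabp5), with a Cd36 difference of -0.61. The first setting called 1070 and the second 578 of all genes tested.

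**Figure D4:**
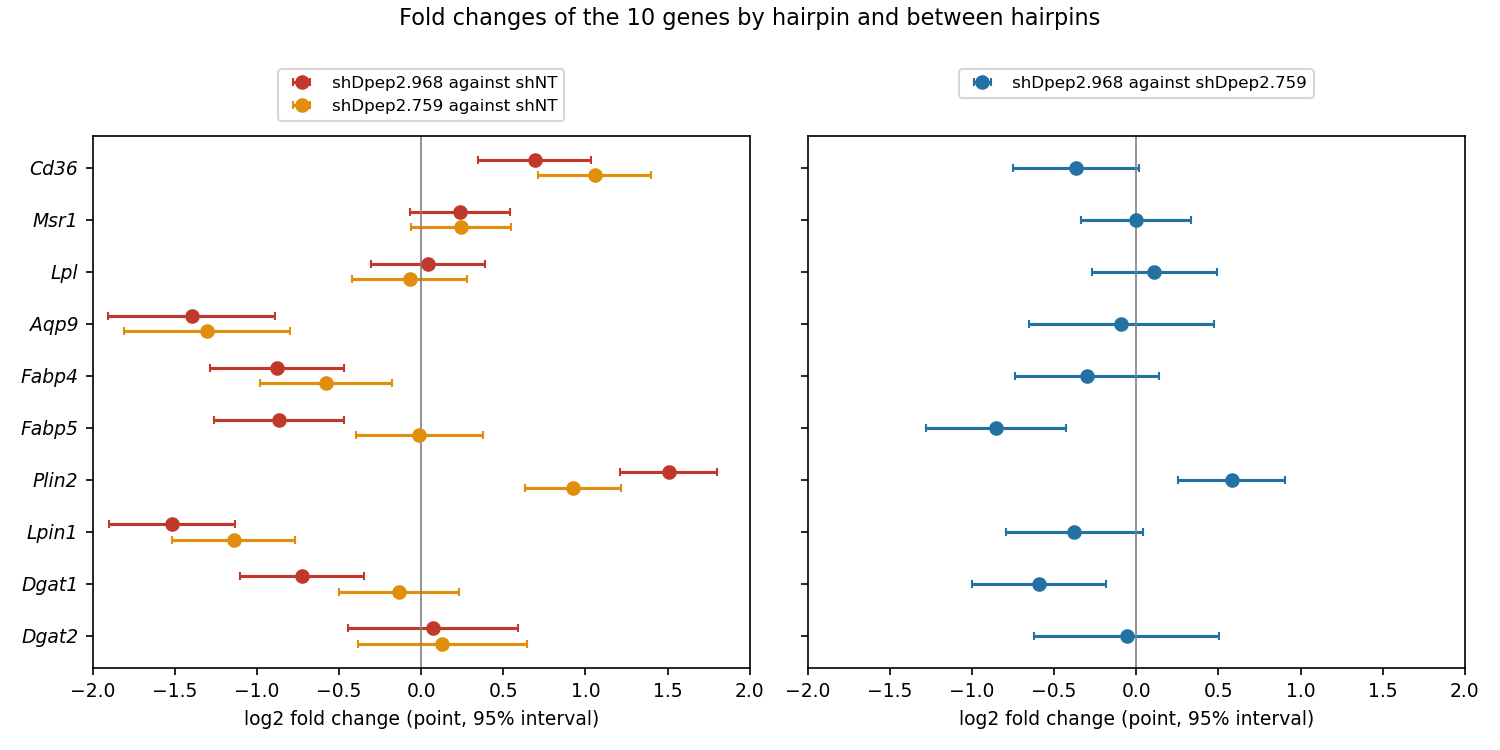
Log2 fold changes with 95% intervals: on the left shDpep2.968 (upper point) and shDpep2.759 (lower point) against shNT, on the right shDpep2.968 against shDpep2.759. Between the hairpins the values are -0.85 for Fabp5, -0.59 for Dgat1 and 0.58 for Plin2, with intervals that leave out 0. None of the 10 genes was past the edgeR threshold in that contrast.

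Other genes of the same pathways were followed in 6 lists, chosen with earlier results of these data known. Their shares and p-values are therefore a description and support nothing. Without the 10 genes the lists held 133 genes, of which 104 were tested. In the averaged comparison 5 rose and 9 fell, or 13.5% beside 7.59% of all genes, and their median log2 fold change was -0.039 beside 0.0025. With shDpep2.968 alone 5 rose and 7 fell, or 11.5% beside 5.25% of all genes. With shDpep2.759 alone 4 rose and 6 fell, or 9.62% beside 4.73% of all genes. The averaged number past the threshold was 9 without shNT replicate 2, 8 without shNT replicate 3, 9 with the replicate block and 23 with the GC and length correction. Over all tested genes these settings gave 356, 321, 404 and 2262 in the same order, against 1012 in the main fit. Between the hairpins 0 of the 104 were past the threshold by edgeR, 0 by limma-voom and 3 by DESeq2. Of all genes these tools called 112, 54 and 378. An unadjusted edgeR p under 0.05 was found for 19 of the 104, beside 15.0% of all genes.

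Among uptake receptors and lipoprotein hydrolysis, 2 of 13 tested genes rose. Cxcl16, a scavenger receptor and chemokine, averaged 52.4 ± 4.31 CPM with the Dpep2 hairpins (SD, n = 4) and 36.1 ± 0.24 CPM with shNT (SD, n = 3), a log2 fold change of 0.53 (edgeR adjusted p = 0.00614). Here and below, the SD with the hairpins is over the libraries of both hairpins together. The p-value rests on the spread within groups instead. Lipa, the lysosomal acid lipase that frees cholesterol and fatty acids from ingested lipoprotein, averaged 339 ± 45.7 CPM with the hairpins (SD, n = 4) and 231 ± 20.6 CPM with shNT (SD, n = 3), a log2 fold change of 0.55 (edgeR adjusted p = 0.0121). Lipa lost its call when shDpep2.968 replicate 2 or either of shNT replicates 2 and 3 was left out, and both genes lost it with the replicate block. With shDpep2.759 alone Lipa was not past the threshold (edgeR adjusted p = 0.0942).

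Among fatty acid binding and activation genes, 0 of 14 rose and 2 fell (2 fell with shDpep2.968 alone and 3 with shDpep2.759 alone). Acsl3, a droplet-associated acyl-CoA synthetase, averaged 26.2 ± 3.23 CPM with the hairpins and 43.8 ± 4.78 CPM with shNT, a log2 fold change of -0.74 (edgeR adjusted p = 0.00361). The other was Acot1, an acyl-CoA thioesterase named after its values were seen, at 0.487 CPM with the hairpins and 1.56 CPM with shNT (log2 fold change -1.66); it is a close paralogue of Acot2, and reads shared between them make its value uncertain. Among droplet coat and lipolysis genes, 1 of 13 rose and 0 fell. Hilpda, a droplet protein that inhibits the lipase Pnpla2, averaged 68.0 ± 8.62 CPM with the hairpins and 35.0 ± 2.05 CPM with shNT, a log2 fold change of 0.96 (edgeR adjusted p = 0.000676). Pnpla2 itself, named after its values were seen, averaged 51.8 ± 4.32 CPM with the hairpins and 66.0 ± 8.80 CPM with shNT, and was not past the threshold (edgeR adjusted p = 0.0811).

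Among other glycerolipid synthesis genes, 0 of 21 rose and 2 fell (1 fell with shDpep2.968 alone and 1 with shDpep2.759 alone). Dgka, which phosphorylates diacylglycerol, averaged 8.75 ± 2.48 CPM with the hairpins and 17.8 ± 1.15 CPM with shNT, a log2 fold change of -1.05 (edgeR adjusted p = 0.000981). Gpat3, which starts the pathway by acylating glycerol phosphate, averaged 13.0 ± 3.11 CPM with the hairpins and 20.6 ± 1.34 CPM with shNT, a log2 fold change of -0.67 (edgeR adjusted p = 0.0262). Gpat3 lost its call when shDpep2.968 replicate 1 or either of shNT replicates 2 and 3 was left out, with the replicate block, and with all hairpin libraries as 1 group (edgeR adjusted p = 0.0503). Among fatty acid oxidation genes, 1 of 23 rose and 1 fell. Cpt1a, which admits fatty acids to mitochondria, averaged 73.7 ± 12.5 CPM with the hairpins and 43.0 ± 1.58 CPM with shNT, a log2 fold change of 0.76 (edgeR adjusted p = 0.00113). Acox3, a peroxisomal oxidase of branched acids, averaged 17.6 ± 1.30 CPM with the hairpins and 30.2 ± 2.71 CPM with shNT, a log2 fold change of -0.78 (edgeR adjusted p = 0.0016).

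Among nuclear receptors and other regulators, 1 of 20 rose and 4 fell in the averaged comparison. With shDpep2.968 alone 1 rose and 3 fell, and with shDpep2.759 alone 1 rose and 1 fell. Nr1h3, which encodes the sterol receptor LXR alpha, averaged 12.5 ± 2.10 CPM with the hairpins and 5.34 ± 1.05 CPM with shNT, a log2 fold change of 1.21 (edgeR adjusted p = 0.00108). The sterol-regulated factor Srebf1 averaged 95.2 ± 11.6 CPM with the hairpins and 151 ± 15.8 CPM with shNT, a log2 fold change of -0.67 (edgeR adjusted p = 0.00288). Srebf2, its partner for cholesterol synthesis genes, averaged 178 ± 20.7 CPM with the hairpins and 268 ± 34.6 CPM with shNT, a log2 fold change of -0.59 (edgeR adjusted p = 0.0103). Tfeb, a regulator of lysosome genes, averaged 11.2 ± 1.84 CPM with the hairpins and 16.9 ± 2.21 CPM with shNT, a log2 fold change of -0.60 (edgeR adjusted p = 0.0195). The other that fell in the averaged comparison was Klf4 (log2 fold change -0.65, edgeR adjusted p = 0.0256), outside the 3 per direction that were to be named. The calls of Srebf2 and Tfeb were lost without shNT replicate 2 or shNT replicate 3, and that of Tfeb also without shDpep2.968 replicate 1, with the replicate block, with all hairpin libraries as 1 group and with the GC and length correction (log2 fold change -0.38). Pparg, the receptor known to drive Cd36 and Fabp4 in macrophages, was too low to test, with 6 and 2 counts in the shDpep2.968 libraries, 1 and 1 in the shDpep2.759 libraries and 3, 1 and 1 in the shNT libraries. Ppard averaged 51.0 ± 5.62 CPM with the hairpins and 61.4 ± 7.65 CPM with shNT and was not past the threshold (edgeR adjusted p = 0.192). Pparg and Ppard were named after their values were seen.

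**Figure D5:**
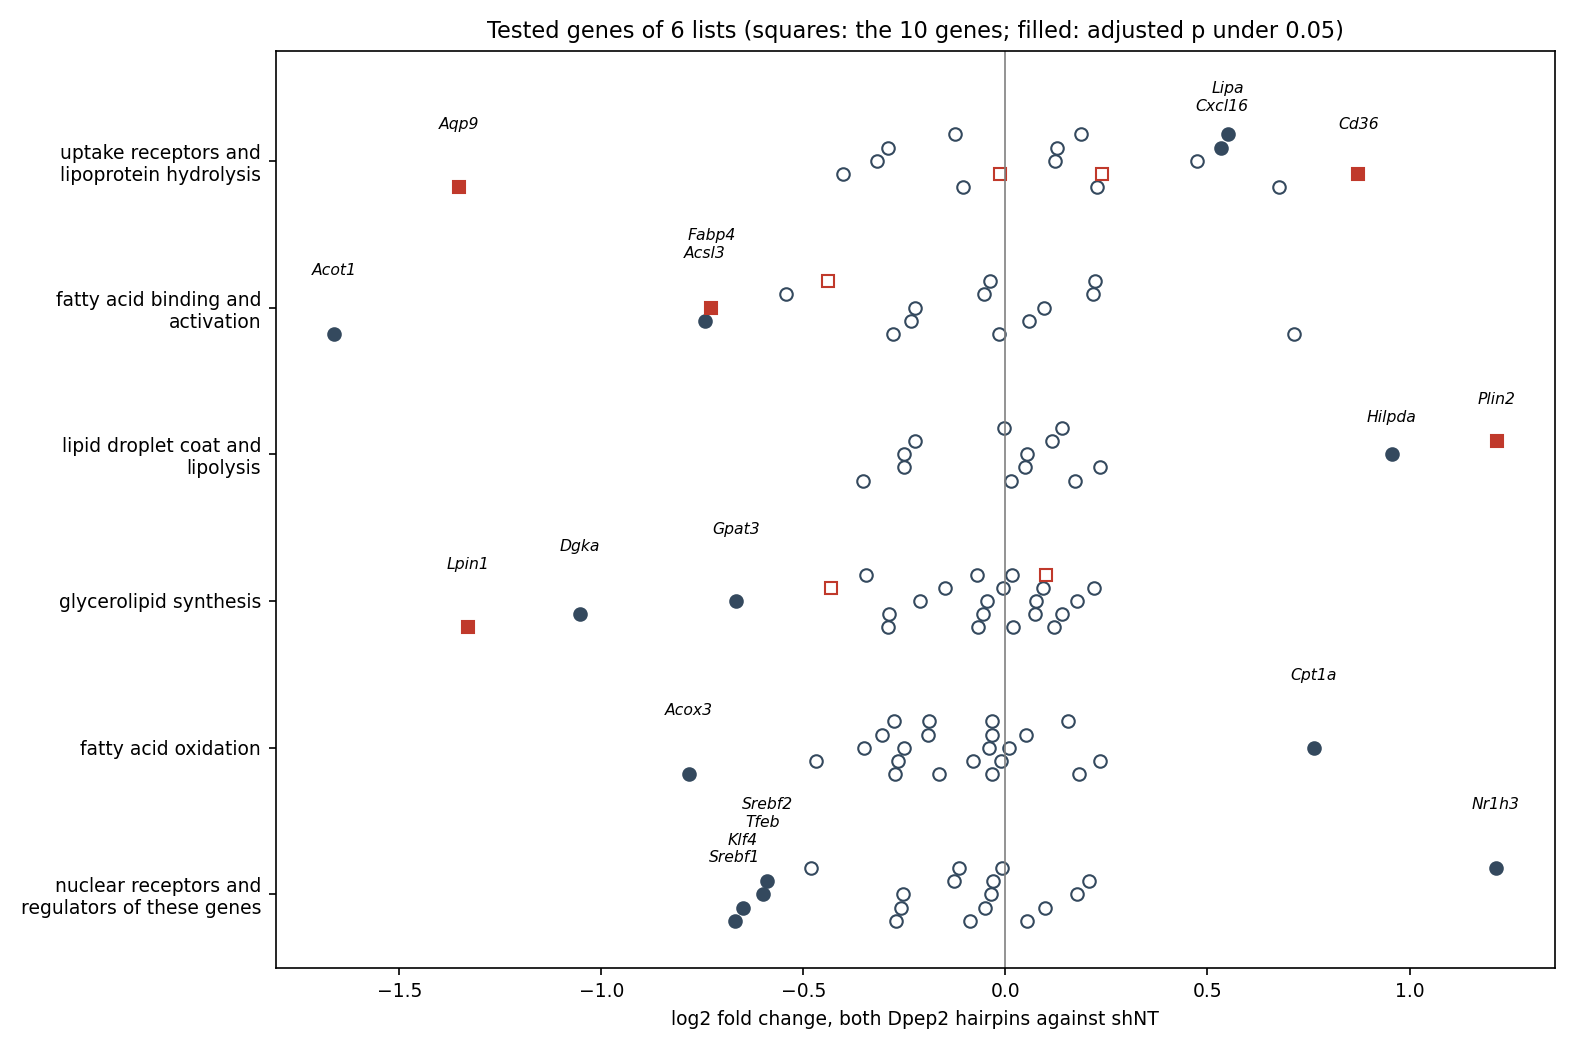
Log2 fold change averaged over both hairpins against shNT for the tested genes of the 6 lists; squares are the 10 genes, circles the other list genes, filled symbols are past the threshold and vertical offsets within a list only separate points. Plin2 (1.22) and Nr1h3 (1.21) are farthest to the right, and Acot1 (-1.66), Aqp9 (-1.35) and Lpin1 (-1.33) farthest to the left.

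The gene whose log2(CPM + 1) followed each of the 10 most closely over the 7 libraries was found among 9498 genes, as a description only, since the libraries share group differences and depth. Plin2 was most like Cd300a (Pearson r = 0.995), Cd36 most like Snx27 (0.993), Msr1 most like Ube2l3 (0.982) and Lpl most like Mbnl1 (0.989). Fabp4 was most like Hsd17b10 (0.997), Fabp5 most like Fbxo44 (0.993), Aqp9 most like Strada (0.988) and Lpin1 most like Zdhhc1 (0.994). Dgat1 was most like Slc35a2 (0.997), and Dgat2, the gene with the fewest counts, had the weakest best match, Espl1 (0.966).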

How the data were processed

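The authors deposited whole-number counts per gene symbol for 7 libraries, made per the labels' protocols from total RNA with a stranded kit and read as 150 bp pairs. Trim Galore, Salmon and a human build (hg38) are listed in the submitters' processing notes with no version or role, although the symbols are mouse. The mouse annotation and strand setting, and any rounding of Salmon estimates to whole counts, were not given in the sources used here. The analysis used edgeR 4.0.16, DESeq2 1.42.0 and limma 3.58.1 in R 4.3.3. Genes passing filterByExpr (13329) were TMM-scaled, and all 7 libraries entered 1 fit with a mean for each group (4 residual degrees of freedom), tested by the robust quasi-likelihood test and adjusted by Benjamini-Hochberg with a threshold of 0.05. The common biological coefficient of variation was 13.8%. Replicates differed beyond sampling noise, with a chi-square over its degrees of freedom of 15.5 to 44.9, the highest between the shDpep2.759 libraries. On simulated data of 13329 genes the averaged comparison recovered 45.4% of 1.5-fold and 81.6% of 2-fold changes, and the comparison between hairpins 20.4% and 70.1%.

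The 10 genes, the lists and the markers were chosen with earlier results of these data known. The results of 1 list gene are not reported here, and the list counts leave it out. Of each list, up to 3 genes per direction with the smallest p past the threshold and a mean of at least 1 CPM were named. Lengths and GC content came from mouse GENCODE M21 and covered 95.7% of tested genes. Alternatives were other scalings and filters, DESeq2, limma-voom, a fit that was not robust, leaving out each library, a replicate block, other sets of samples in the fit, and a GC and length correction added after seeing the data.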

Additional observations from a re-analysis of the deposited data

How the results depend on the processing

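Cd36, Plin2, Lpin1 and Aqp9 kept their direction and their averaged call under all 17 alternatives run, as did Dpep2. The averaged log2 fold changes of Cd36, Plin2, Lpin1 and Aqp9 ranged from 0.70 to 1.03, 1.11 to 1.31, -1.44 to -1.23 and -1.55 to -1.20. These genes were chosen with their fold changes known, and all alternatives draw on the same 7 libraries. The kept calls therefore describe the processing and support nothing about the genes. Fabp5 passed the averaged threshold with no low-count filter, with DESeq2, with the GC and length correction and without shDpep2.759 replicate 1. No called value changed sign. The number of the 10 genes past the threshold ranged with 1 library left out from 4 to 6 averaged, 2 to 7 with shDpep2.968, 4 to 5 with shDpep2.759 and 0 to 3 between the hairpins. Between the hairpins it was 2 with no low-count filter, 2 with DESeq2 and 3 with the GC and length correction, against 0.

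Over all tested genes, the number past the threshold was 1012 averaged, 700 with shDpep2.968, 630 with shDpep2.759 and 112 between the hairpins. With 1 library left out these ranged from 321 to 1468, 69 to 1309, 253 to 768 and 6 to 1070. With no low-count filter they were 1590, 1443, 1131 and 669, and with the GC and length correction 2262, 1823, 1783 and 578. All hairpin libraries as 1 group gave 540 averaged. Fits of the compared groups only gave 1350 with shDpep2.968 and 61 between the hairpins, where DESeq2 gave 378, limma-voom 54 and no robust estimation 63. The cause of these shifts was not tested. Averaged fold changes fell with GC content across 12757 genes (Spearman rho -0.259, a description).

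Same-numbered libraries did not deviate together throughout (correlations of 0.12 between hairpins and -0.34 to -0.24 with shNT), so the numbers were not taken as pairs. Differently numbered libraries gave -0.12 between hairpins and -0.075 to 0.34 with shNT. With 2 libraries per hairpin the deviations from the group mean mirror each other, so these values are not independent. With the replicate block the counts over all genes were 404 averaged, 308 with shDpep2.968, 312 with shDpep2.759 and 130 between the hairpins, and of the 10 genes 5 with shDpep2.968 and 1, Fabp5, between the hairpins. Among the list genes followed by name through the alternatives, the block ended the averaged calls of Cxcl16, Lipa, Gpat3 and Tfeb. Over all list genes outside the 10, the averaged number past the threshold was 9 with the block, against 14. Changes under 2-fold between the hairpins are near the limit of this depth and number of libraries.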
